A study of Mus musculus with 1019 samples.

Results

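The genes described here are 10 genes of the T cell receptor complex and its first signalling steps. They are Cd3d, Cd3e, Cd3g, Cd247, Cd4, Lck, Zap70, Lat, Cd2 and Cd5, chosen by name, with earlier results of these data known. All 10 were rows of the count table, which lists 23725 genes, 13281 of them with at least 1 unique molecular identifier (UMI, the tag that marks a single captured mRNA molecule). The cells were regulatory T cells (Tregs) of male B6 mice aged 20 months, and the labels name no further allele or treatment. Tregs came from spleen, as 1 inDrops library, or from epididymal visceral adipose tissue (VAT), as 2 libraries numbered 2 and 3. In both tissues the gate took live cells with surface T cell receptor (TCRb), CD4 and CD25, so receptor and CD4 protein were part of the sort. Spleen was dissociated mechanically and VAT by collagenase and dispase digestion, so tissue and dissociation cannot be told apart. For the spleen cells, the source label reads spleen, while the tissue label names both tissues and the replicate number differs between 2 labels. They are called the spleen library here, by their source label.

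The T cell receptor has no signalling tail of its own. Its alpha and beta chains bind peptide and MHC, and the signal passes through the CD3 delta, epsilon and gamma chains (Cd3d, Cd3e, Cd3g) and the zeta chain (Cd247), whose tails carry the tyrosine motifs called ITAMs. CD4 binds MHC class II and carries the kinase Lck, which phosphorylates the ITAMs. Zap70 docks on the phosphorylated ITAMs and phosphorylates Lat, the membrane adaptor on which downstream effectors assemble. CD2 is an adhesion and costimulatory receptor, and CD5 is a receptor that dampens the signal. Tregs depend on signals of this receptor for their development and function.

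The genes of 3 of the 4 signalling chains are neighbours in the genome. In the mouse build GRCm38 (mm10), Cd3g lies on chromosome 9 from 44969572 to 44980431 on the minus strand, Cd3d from 44981786 to 44987339 on the plus strand and Cd3e from 44998740 to 45009627 on the minus strand. The Cd3g and Cd3d start sites point away from each other and are 1355 bases apart in the RefSeq models. Cd247 lies apart from them, on chromosome 1, from 165788681 to 165877277 on the plus strand. The 3 neighbours were lower in each VAT library than in spleen. Cd247 was not lower, and in VAT library 3 it did not differ from spleen beyond counting error. For that reason the promoter sequences of these 4 genes are shown. They are the 150 bases before each RefSeq start site in GRCm38.p6, read 5′ to 3′ on the gene's strand, with every match to a searched motif in capitals.
Cd3g, chr9:44980432-44980581, minus strand: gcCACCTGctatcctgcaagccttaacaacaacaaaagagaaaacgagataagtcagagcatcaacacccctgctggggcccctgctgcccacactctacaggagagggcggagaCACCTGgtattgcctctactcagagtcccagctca
Cd3d, chr9:44981636-44981785, plus strand: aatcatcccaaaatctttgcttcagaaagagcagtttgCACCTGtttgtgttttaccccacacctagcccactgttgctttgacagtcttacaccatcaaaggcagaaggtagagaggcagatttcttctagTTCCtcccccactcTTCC
Cd3e, chr9:45009612-45009761, minus strand: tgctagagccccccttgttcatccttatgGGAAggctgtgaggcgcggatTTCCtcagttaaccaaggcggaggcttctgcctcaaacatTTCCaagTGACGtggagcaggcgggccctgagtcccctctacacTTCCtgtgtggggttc
Cd247, chr1:165788531-165788680, plus strand: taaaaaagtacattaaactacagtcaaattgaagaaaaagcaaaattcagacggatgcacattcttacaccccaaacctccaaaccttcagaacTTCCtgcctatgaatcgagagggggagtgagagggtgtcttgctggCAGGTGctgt
Motifs of 4 kinds known from T cell promoters were searched on both strands. The ETS core GGAA was present in 80.8% of the 32851 RefSeq mouse promoter windows of this length. The E-box CACCTG was present in 10.6% of all windows. The CRE core TGACG was present in 13.3%, and the RUNX core TGTGGT in 8.40%. The E-box had 2 matches in the window of Cd3g, 1 in that of Cd3d and 1 in that of Cd247, and 0 in that of Cd3e, which held the single CRE core. The ETS core had 4 matches in Cd3e, 2 in Cd3d, 1 in Cd247 and 0 in Cd3g, and the RUNX core was in none of these windows. The matches are a description of the letters and not of binding.

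The spleen library held 375 cells and 573622 UMIs, VAT library 2 held 330 cells and 556099 UMIs, and VAT library 3 held 314 cells and 548770 UMIs. The median cell held 1423, 1565 and 1611 UMIs, respectively. The labels name no animal, so each library counted as 1 sample and no test was made. All 95% intervals are exact and cover counting error only. Those of levels, ratios and shares of UMIs are too narrow because UMIs of a gene clump in cells. Values for Cd4 and Lck are given with the cells. Libraries shared 0 to 2 cell barcodes pairwise. Foxp3, which defines Tregs, had 221, 263 and 189 UMIs, and Il2ra, which encodes CD25, had 260, 614 and 555 (spleen, VAT libraries 2 and 3, the order used throughout). Markers of B cells summed to 1, 0 and 1 UMIs, myeloid markers to 7, 7 and 4, and adipocyte markers to 0, 1 and 0. Erythroid markers summed to 116 UMIs in spleen and 1 in each VAT library, and Pecam1 had 29, 1 and 2 UMIs. The part of these spleen transcripts in the results was not tested, and without the cells holding a UMI of another cell type the median log2 ratio over the members was -0.60 and -0.50. That setting left out cells unevenly, 130 of 375 in spleen, 35 of 330 in VAT library 2 and 40 of 314 in VAT library 3. The constant-region genes of the T cell receptor itself (Trac, Trbc1, Trbc2, Trdc, Trgc1 and Trgc2) were not rows of the table and are not analysed here.

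The CD3 delta, epsilon and gamma transcripts were lower in both VAT libraries than in spleen, while the zeta chain transcript was not. Cd3d had 283 UMIs in spleen, 132 in VAT library 2 and 127 in VAT library 3, which is 493, 237 and 231 CPM (UMIs scaled to a total of 1000000 per library). Both VAT values lay well below the spleen value, 2.08-fold and 2.13-fold lower. The ratios of CPM to spleen were 0.481 (95% interval 0.388 to 0.594) and 0.469 (0.377 to 0.580). Cd3e, the chain that pairs with both delta and gamma, had 131, 89 and 60 UMIs (228, 160 and 109 CPM), and its ratios were 0.701 (0.529 to 0.924) and 0.479 (0.347 to 0.655). Cd3g had 199, 96 and 125 UMIs (347, 173 and 228 CPM), with ratios of 0.498 (0.386 to 0.638) and 0.657 (0.521 to 0.825). For Cd3e the lower VAT library was library 3, and for Cd3g it was library 2. In cells with a Foxp3 UMI, Cd3e did not differ between spleen and VAT library 2 beyond counting error, with 39 UMIs (193 CPM, 137 to 263) and 43 UMIs (190 CPM, 138 to 256). Summed, the 3 CD3 genes had 613, 317 and 312 UMIs, or 1069, 570 and 569 CPM. The summed ratios were close to each other, 0.533 (0.464 to 0.612) and 0.532 (0.463 to 0.611). This sum was not among the planned results, and it leaves out Cd247.

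Cd247 had 171 UMIs in spleen, 216 in VAT library 2 and 189 in VAT library 3 (298, 388 and 344 CPM). Both VAT values were above the spleen value, with ratios of 1.30 (1.06 to 1.60) and 1.16 (0.934 to 1.43), and the second interval includes equality. Zeta's share of the UMIs of the 4 chains does not depend on how libraries are scaled. In spleen this share was 21.8% (exact binomial interval 19.0 to 24.9). VAT library 2 had a share of 40.5% (36.3 to 44.8), and VAT library 3 one of 37.7% (33.5 to 42.1). The spleen interval did not overlap either VAT interval, and the VAT intervals overlapped each other. Zeta's share was added after its values were seen, so these intervals are a description and no support. The share of Cd3d moved the other way, at 36.1%, 24.8% and 25.3%, whereas that of Cd3e was 16.7%, 16.7% and 12.0%, and that of Cd3g 25.4%, 18.0% and 25.0%. In spleen the order of the chains by CPM was Cd3d, Cd3g, Cd247 and Cd3e, and Cd247 stood first in both VAT libraries. The zeta level of 388 CPM (338 to 444) in VAT library 2 did not overlap the Cd3d level of 237 CPM (199 to 281) there, nor did 344 CPM (297 to 397) overlap 231 CPM (193 to 275) in VAT library 3. A limit applies to Cd247: its annotated exons share 3007 bases with exons of Pou2f1 on the opposite strand, and whether counting used strand is not given in the sources used here. Pou2f1 had 26, 33 and 21 UMIs.

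**Figure D1:**
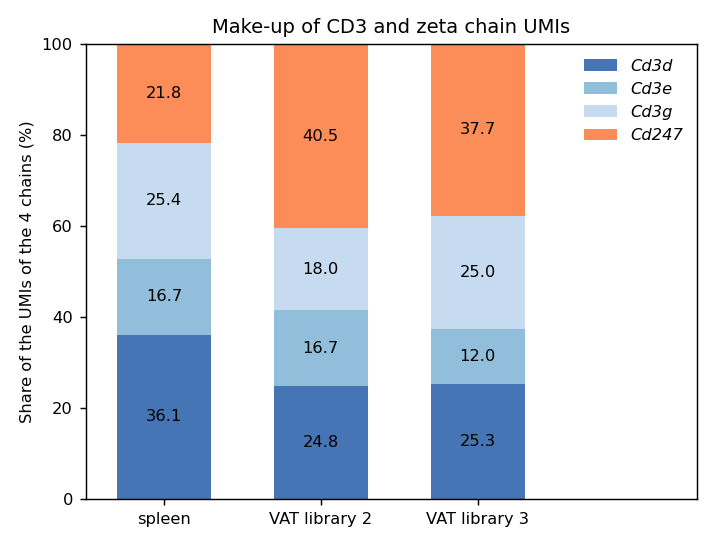
Share of the UMIs of Cd3d, Cd3e, Cd3g and Cd247 held by each gene (y axis, percent of their UMIs) in the spleen library and the 2 VAT libraries. Each library is a stacked bar with the percent printed in each segment, and no intervals are drawn. Cd247 holds 21.8% in spleen and 40.5% and 37.7% in the VAT libraries, and Cd3d holds 36.1%, 24.8% and 25.3%. The share of Cd247 was added after its values were seen.

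The coreceptor transcript differed between the VAT libraries more than between spleen and VAT library 2. Cd4 had 400, 374 and 233 UMIs (697, 673 and 425 CPM). VAT library 2 lay near spleen, with a ratio of 0.964 (0.835 to 1.11), and VAT library 3 was lower than both, at 0.609 (0.516 to 0.717) of spleen and 0.631 (0.534 to 0.746) of VAT library 2. Cd8a, the coreceptor chain of cytotoxic T cells, had no UMI in any library, which allows up to 5.23, 5.39 and 5.47 CPM by the 3 counts that a count of 0 allows. Cd8b1, its partner chain, had 28, 32 and 30 UMIs.

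Both kinases were lower in VAT, and the adaptor Lat less so. Lck was the most abundant of the 10 transcripts in every library, with 726 UMIs in spleen, 410 in VAT library 2 and 352 in VAT library 3 (1266, 737 and 641 CPM). The VAT libraries lay close together and below spleen, with ratios of 0.583 (0.515 to 0.658) and 0.507 (0.445 to 0.576). Zap70 was the least abundant member in all 3 libraries, with 93, 45 and 58 UMIs (162, 80.9 and 106 CPM). Its ratios were 0.499 (0.342 to 0.720) and 0.652 (0.461 to 0.915). Lat had 277, 192 and 251 UMIs (483, 345 and 457 CPM). Only VAT library 2 was below spleen beyond counting error, with a ratio of 0.715 (0.592 to 0.863) against 0.947 (0.795 to 1.13) in VAT library 3. Among the UMIs of Lck, Zap70 and Lat, the share of Lck was 66.2% (63.4 to 69.0), 63.4% (59.5 to 67.1) and 53.3% (49.4 to 57.1), and that of Lat 25.3%, 29.7% and 38.0%. Zap70 held 8.49%, 6.96% and 8.77%.

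The accessory receptors Cd2 and Cd5 had similar levels in the 3 libraries. Cd2 had 281, 285 and 258 UMIs (490, 512 and 470 CPM), with ratios of 1.05 (0.884 to 1.24) and 0.960 (0.807 to 1.14). Cd5 had 100, 95 and 89 UMIs (174, 171 and 162 CPM), with ratios of 0.980 (0.732 to 1.31) and 0.930 (0.691 to 1.25). All 4 intervals include equality, and those of Cd5 are the wider ones.

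**Figure D2:**
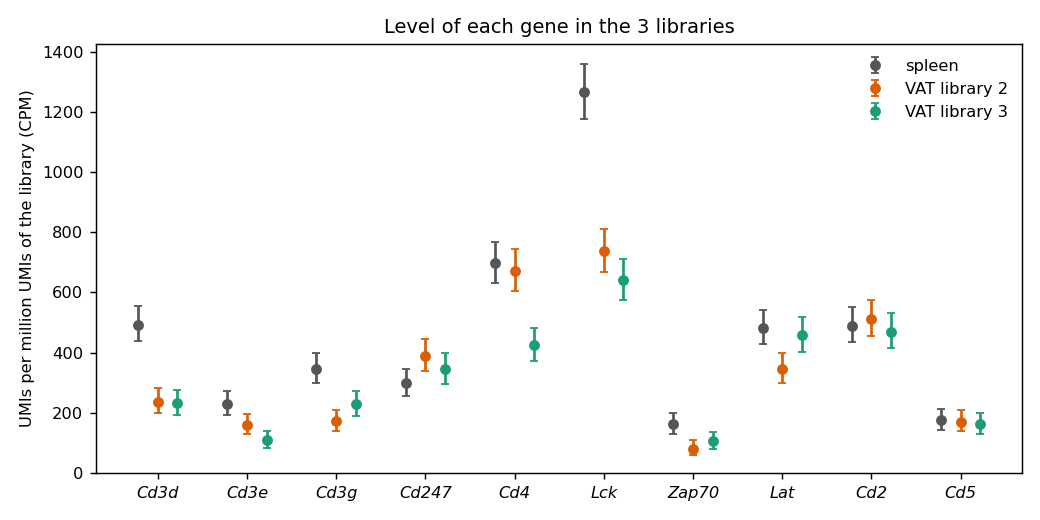
Level of each of the 10 genes (y axis, CPM) in the spleen library and the 2 VAT libraries, with exact 95% Poisson intervals for counting error. Spleen is highest for all but Cd247 and Cd2, its interval overlaps neither VAT interval for Cd3d, Cd3g and Lck, and it is lowest for Cd247.

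As a group, the 10 genes summed to 2661, 1934 and 1742 UMIs, or 4639, 3478 and 3174 CPM. The summed ratios to spleen were 0.750 (0.707 to 0.795) and 0.684 (0.644 to 0.727). The median log2 ratio of CPM over the members, with 0.5 added to each count, was -0.50 in VAT library 2 and -0.61 in VAT library 3. Over all 4635 genes with at least 50 UMIs in the 3 libraries together it was 0.04 and -0.02. All 10 members passed this minimum. Cd3d alone was lower by 2-fold or more in each VAT library, against 4.47% of all genes that passed. No member was higher by that much in both, against 10.4%. Lower by any amount in both were 8 members, all but Cd247 and Cd2 (Cd2 was lower too when ribosomal protein genes were left out of the totals), against 40.6% of genes. The counting interval lay below equality in both VAT libraries for 5 members (Cd3d, Cd3e, Cd3g, Lck and Zap70), against 13.1% of genes, and above it in both for 0 members, against 16.0%. These calls rest on counts, which were larger for the members than for most genes. Among the 1097 genes within the members' range of 196 to 1488 UMIs, 2.46% were 2-fold lower and 13.0% were 2-fold higher in both, and the median log2 ratios were 0.08 and 0.04. The comparisons of the VAT libraries with spleen share the spleen library, so they are not independent of each other.

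**Figure D3:**
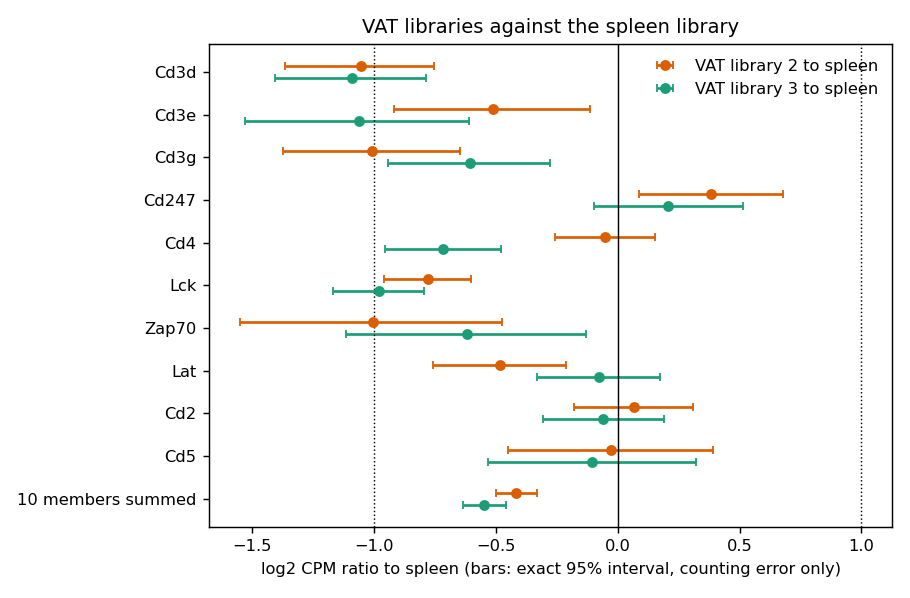
Ratio of each VAT library to the spleen library for the 10 genes and their sum (x axis, log2 ratio of CPM), with exact 95% intervals for counting error and dotted lines at 2-fold. Both points lie left of 0 for 8 genes, right of 0 for Cd247 and on either side of it for Cd2.

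The VAT libraries, which carry the same group label, differed from each other for some members. No member was 2-fold apart between them, against 4.94% of genes. The interval of the ratio of library 3 to library 2 left out equality for 4 members, Cd3e, Cd3g, Cd4 and Lat, against 15.2% of genes. Cd3e, at 0.683 (0.484 to 0.958), and Cd4 were lower in library 3, and Cd3g, at 1.32 (1.003 to 1.74), and Lat, at 1.32 (1.09 to 1.61), were higher. With 1 spleen library, the spread between spleen libraries was not measured.

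The share of cells with a UMI was taken at equal depth. After each cell was thinned to 800 UMIs, with no cell left out, 27.7% of spleen cells, 16.4% of cells in VAT library 2 and 15.0% in VAT library 3 held Cd3d (45.1%, 29.7% and 28.7% before thinning). For Cd247 the thinned shares were 17.9% (14.1 to 22.1), 29.1% (24.2 to 34.3) and 24.5% (19.9 to 29.7), and the unthinned ones 28.3%, 44.8% and 40.1%. Lck was held by 41.9%, 28.8% and 26.1% of thinned cells (55.2%, 37.9% and 34.1% unthinned), and Cd2 by 29.9%, 31.2% and 31.2% (47.2%, 51.8% and 51.6%). Zap70 was seen in the fewest cells, 10.4%, 6.97% and 7.64% (19.2%, 10.9% and 15.3%), tied with Cd3e in thinned cells of VAT library 3. No B cell marker UMI was left in thinned cells, which allows a share of cells with such a UMI of up to 0.8%, 0.909% and 0.955% by the 3 counts that a count of 0 allows (exact upper limits 0.979%, 1.11% and 1.17%). Myeloid markers were held by 1.07%, 1.21% and 0.955% of thinned cells, and the markers of CD8 T cells and natural killer cells by 3.47%, 4.85% and 4.46%. Erythroid markers were held by 12.5% (9.36 to 16.3), 0% and 0%, and in spleen the shares of Zap70 (10.4%), Cd5 (14.1%) and Cd3e (14.9%) lay within that interval. The shares of the other members in spleen, and of all members in VAT, lay above the values of these marker lists. In VAT library 2, the share of Zap70 (6.97%) lay within the interval of the CD8 and natural killer markers (2.80 to 7.75).

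**Figure D4:**
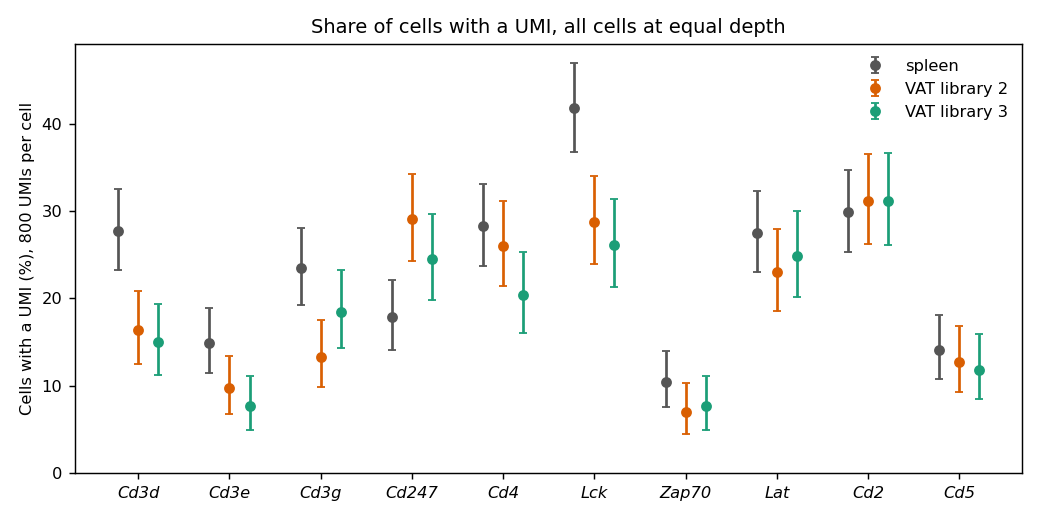
Share of cells with at least 1 UMI of each gene (y axis, percent of cells) after every cell was thinned to 800 UMIs, in the spleen library and the 2 VAT libraries, with exact 95% binomial intervals. Lck is seen in 41.9%, 28.8% and 26.1% of cells, and Cd247 in 17.9%, 29.1% and 24.5%.

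Many sorted cells yielded no transcript of the complex at this depth. At 800 UMIs per cell, at least 1 UMI of Cd3d, Cd3e, Cd3g or Cd247 was found in 62.9% of spleen cells (57.8 to 67.8), 51.8% of cells in VAT library 2 (46.3 to 57.3) and 49.4% in VAT library 3 (43.7 to 55.0). At full depth these shares were 83.7%, 73.6% and 73.6%. The absence of a UMI is not the absence of the transcript in a cell. A thinned cell held a median of 2 of the 10 members in each library, with means of 2.36, 1.97 and 1.88. Cells with at least 5 members numbered 24, 12 and 5. At full depth only 6, 11 and 13 cells held none of the 10.

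Cd4 and Lck transcripts were held by fewer cells, relative to their number of UMIs, than those of the other members. If UMIs fell on cells independently, a gene's thinned UMIs would spread over a calculable number of cells. Genes of the members' abundance reached a median of 85.5%, 87.3% and 85.8% of that number, with a 5th percentile of 65.7%, 69.5% and 67.6%. Cd4 reached 60.7%, 64.2% and 72.9%, and Lck 68.0%, 69.9% and 69.9%. Zap70 reached 98.2%, 99.4% and 89.6%, and Cd5 98.6%, 95.9% and 94.1%, close to an independent spread. At full depth a cell with Lck held on average 3.51, 3.28 and 3.29 Lck UMIs, with 17, 11 and 12 in the highest cell, and a cell with Cd4 held 2.82, 2.71 and 2.35 Cd4 UMIs. Members were held by the same cells about as often as their shares give: over the 45 pairs of members, the summed number of thinned cells with both was 1.01, 1.06 and 1.06 times the product of the shares. Sparse counts limit what pairs can show.

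Within a library, the members were compared between cells with and without a UMI of a gene outside the 10. Cells with a Foxp3 UMI numbered 130, 128 and 98, and their summed member level was 0.986 (0.910 to 1.07), 1.01 (0.926 to 1.11) and 0.978 (0.883 to 1.08) times that of the other cells. So the 10 genes together stood at nearly the same level in cells with and without a Foxp3 UMI. Of single members, the interval left out equality for Cd2 in spleen, at 1.33 (1.04 to 1.69), and Cd3d in VAT library 2, at 0.681 (0.461 to 0.993). It also did so for Lck in VAT library 3, at 0.691 (0.537 to 0.881). Klrg1, a receptor of differentiated effector Tregs, had a UMI in 12, 277 and 280 cells. The members' sum in cells with Klrg1, relative to the other cells of the library, was 1.15 (0.935 to 1.41), 1.01 (0.890 to 1.15) and 0.768 (0.663 to 0.893). In VAT library 3 Lck was 0.477 (0.361 to 0.638) times as high in cells with Klrg1, and in VAT library 2 the same ratio was 1.03 (0.780 to 1.38). The interval also left out equality for Cd5 in VAT library 2, at 0.485 (0.303 to 0.800). For Cd2 it did so in VAT library 3, at 0.671 (0.467 to 0.993). In spleen it did so for Lat, at 0.320 (0.0656 to 0.945), and Cd4, at 2.98 (2.06 to 4.18). The spleen cells with Klrg1 held 3 Lat UMIs. They held 37 Cd4 UMIs, of which 12 and 10 were in single cells. Nr4a1, an immediate early gene induced by antigen receptor signalling, had a UMI in 34, 279 and 254 cells. The members' sum in cells with Nr4a1, relative to the other cells of the library, was 0.710 (0.614 to 0.817), 0.992 (0.874 to 1.13) and 0.928 (0.822 to 1.05). In the 34 spleen cells with Nr4a1, Cd3d, Cd3e and Cd3g summed to 639 CPM against 1121.5 CPM in the other spleen cells, a ratio of 0.570 (0.403 to 0.785) at median depths of 1649.5 and 1418 UMIs. Among other members in spleen, Lck was at 0.708 (0.532 to 0.927), Cd4 at 0.685 (0.459 to 0.990) and Cd247 at 0.960 (0.554 to 1.57). In VAT library 3 the interval left out equality for Cd3d, at 0.618 (0.410 to 0.953), and for Cd5, at 2.11 (1.02 to 5.05). Cd5 had 8 UMIs in the cells of that library without Nr4a1. The ratios of the summed CD3 genes in the VAT libraries were 0.926 (0.681 to 1.28) and 0.806 (0.610 to 1.08).

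The other genes of the pathway had medians near 0 when pooled, and lists differed in sign. In 6 lists covering coreceptors, kinases, adaptors, second messengers, negative regulators and the receptor chains, 72 of 78 genes were rows and 58 passed the minimum of 50 UMIs. Of these, 4 (6.90%) were called higher and 3 (5.17%) lower, by 2-fold in each VAT library, against 10.4% and 4.47% of all genes, with median log2 ratios of 0.06 and -0.01. Nck2 and Stim1, called higher, passed the minimum only through their VAT counts, and Lax1, called lower, only through its spleen count. The counts of calls in these lists are therefore no support. None of 10 coreceptor and costimulation genes was called in either direction, with medians of 0.27 and 0.26. Its 3 most abundant genes were Cd52, a small surface glycoprotein (649, 695 and 881 UMIs), Thy1, a surface marker of T cells (531, 337 and 364), and Icos, a costimulatory receptor (226, 170 and 186). Of 9 kinases and phosphatases, only Ptpn6, the phosphatase SHP-1, was called, as lower (70, 26 and 24 UMIs, 2.61-fold and 2.79-fold), and the list's medians were -0.32 and -0.39. Fyn, the other Src-family kinase of the receptor, had 193, 90 and 103 UMIs, 2.08-fold and 1.79-fold lower. Ptprc, which encodes the phosphatase CD45 that activates Lck, had 504, 587 and 475 UMIs, and its associated protein Ptprcap had 516, 458 and 508.

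Single adaptors and effectors differed more than any member, in both directions, while the list's medians were -0.09 and -0.17. Sit1, a transmembrane adaptor that binds phosphatases, had 24, 129 and 118 UMIs, 5.54-fold and 5.14-fold higher in VAT, and Nck2, an adaptor to the actin machinery, had 11, 64 and 46. Lax1, a membrane adaptor related to Lat that dampens signalling, had 74 UMIs in spleen, 0 in VAT library 2 and 8 in VAT library 3. It was at least 23.9-fold lower in library 2, counted against 3 UMIs in that library, and 8.85-fold lower in library 3. The most abundant of the 13 genes were Coro1a, an actin regulator (1099, 873 and 896 UMIs), Skap1, an adhesion adaptor (164, 113 and 115), and Grb2, which links Lat to Ras activation (139, 230 and 172). Among 12 second messenger genes, Prkcq, the protein kinase C of the T cell synapse, was 3.74-fold and 3.69-fold lower (81, 21 and 21 UMIs), and Stim1, the calcium sensor of the endoplasmic reticulum, was 5.89-fold and 5.67-fold higher (7, 40 and 38). Rasgrp1, the activator of Ras, had 71, 93 and 120 UMIs, the transcription factor Nfatc3 had 77, 79 and 71, and Malt1, of the complex that activates NF-kB, had 61, 64 and 66. Of 14 negative regulators, with medians of -0.36 and -0.08, Ubash3b, a phosphatase that acts on Zap70, was 5.10-fold and 6.50-fold higher (18, 89 and 112 UMIs). Dgka, the diacylglycerol kinase, had 312, 190 and 131 UMIs, Sla had 157, 179 and 159, and Rasal3 had 93, 71 and 80.

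**Figure D5:**
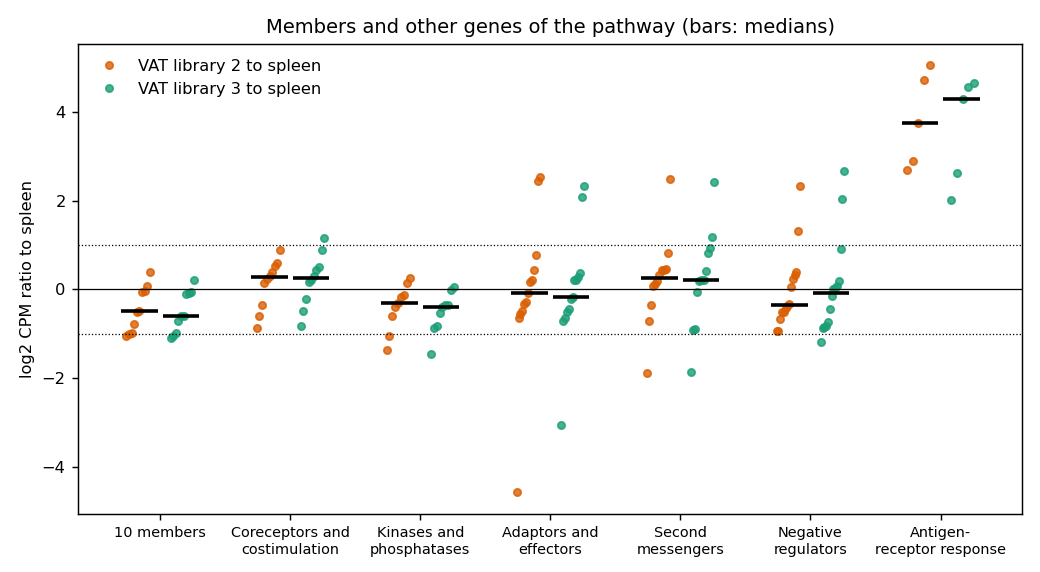
Log2 ratio of CPM to spleen (y axis) in VAT library 2 and VAT library 3 for the 10 members and the genes of 6 lists with at least 50 UMIs, 1 point per gene, with black bars at the medians and dotted lines at 2-fold. Lax1 in VAT library 2, with 0 UMIs, is drawn at its floor of 3 UMIs, and the 5 antigen-receptor response genes all lie above the 2-fold line.

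Genes induced by antigen receptor signalling stood apart from the receptor genes. Of 8 listed response genes, 5 passed the minimum of 50 UMIs, and these were higher by 2-fold or more in both VAT libraries (10.4% of all genes were), a direction already known from earlier work on these data. Nr4a1 had 76, 2454 and 1828 UMIs, Cd69, an early activation receptor, 28, 722 and 640, and Egr1, an immediate early transcription factor, 11, 150 and 214. Nr4a2 had 10, 65 and 40, and Irf4, a transcription factor of effector Tregs, 10, 75 and 61. Egr1, Nr4a2 and Irf4 passed the minimum only through their VAT counts, so their count of calls is no support. The other listed genes were low throughout: Egr2 had 10, 5 and 5 UMIs, Egr3 0, 0 and 1, and Nr4a3 0, 0 and 4. Only VAT was digested with enzymes, and for these genes too tissue and dissociation cannot be told apart.

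Among 1225 other genes with at least 200 UMIs, likeness to the summed members was measured as the distance between their pairs of log2 ratios (-0.42 and -0.55 for the members' sum). The nearest were Csk, with 134, 98 and 88 UMIs at a distance of 0.01, Arf3 (141, 103 and 91), Sept6 (87, 64 and 57) and Thrap3 (100, 74 and 65). These distances rest on 2 ratios that share the spleen library, and they are smaller than the counting error of each of these genes.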

How the data were processed

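Single Tregs were profiled with inDrops, in which mRNA is captured by oligo dT in droplets, amplified by in vitro transcription and read on a NextSeq500 sequencer. TopHat2, SAMtools and the build mm10 are named, without versions, per the submitters' processing notes. The annotation, the strand setting, the cell filter and any doublet removal are not given in the sources used here, and no doublet caller was run. The authors deposited raw UMI counts with genes as rows and cells as columns, and all 1019 cells were used. Columns were assigned to libraries by the cells' titles. Counts were summed per library, divided by the library's total and scaled to 1000000 (CPM).

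No test was made, since the labels name no animal and each library was 1 sample. Intervals at 95% were exact Poisson (levels), exact Clopper-Pearson (shares) and conditional binomial (ratios). Genes needed 50 UMIs over the 3 libraries, a call needed 2-fold in both VAT libraries, log2 ratios used a prior count of 0.5, and fold ratios used none. Cells were thinned to 800 UMIs with a fixed seed. The 10 members and the lists were chosen with earlier results of these data known. All members are named, as are, of each list, the genes called and the 3 with most UMIs, and the 4 genes nearest in pattern. Promoter windows came from RefSeq (GRCm38.p6), which matched 8 of the 10 members, and positions from GENCODE (mm10). Python 3.11.15, numpy 2.4.6, scipy 1.17.1 and pandas 2.3.3 were used, with edgeR 4.0.16 for TMM factors only. The interval and call code was tested on simulated data.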

Additional observations from a re-analysis of the deposited data

How the results depend on the processing

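Of the list values under the other settings, 53 stayed within the set limits and 11 moved. No median or summed ratio of the members changed direction. The tally includes the counts of members called, which have no direction, and no member was called higher under any setting. The members 2-fold lower in both VAT libraries, 1 as reported (Cd3d), numbered 2 without ribosomal protein genes in the total (Cd3d and Lck), 0 with at most 1 UMI per gene and thinned cell, 0 in cells with a Foxp3 UMI, 4 at 1.5-fold (Cd3d, Cd3g, Lck and Zap70), and 2 to 3 when a VAT library was left out (Cd3d and Cd3e without library 2, Cd3d, Cd3g and Zap70 without library 3). The summed members' ratios to spleen were 0.634 and 0.593 without ribosomal protein genes and 0.836 and 0.795 with at most 1 UMI per gene and cell. In cells with a Foxp3 UMI the median log2 ratio in VAT library 2 was -0.12. Ribosomal protein genes held 30.6%, 17.9% and 19.9% of UMIs, and taking them out of the totals moved the median of all genes to -0.20 and -0.23 and the calls from 207 lower and 484 higher to 352 and 389. Relative to those medians the members' medians were -0.54 and -0.59 with or without them. This had to be so, since a change of the total shifts all genes of a library alike, and it is no support. The medians of the coreceptor and second messenger lists dropped to 0.03 and 0.05, and to 0.02 and 0.00338, under that scaling, and Cd27, Fyn and Dgkz joined the genes called lower. Genes called lower numbered 322 in cells with a Foxp3 UMI, 418 and 357 without VAT library 2 or 3, 512 at a minimum of 20 UMIs (829 higher), 31 at 200 UMIs (168 higher) and 609 at 1.5-fold (848 higher). Over 10 settings Cd3d, Cd3e, Cd3g, Cd4, Lck and Zap70 stayed below spleen and Cd247 above it in both VAT libraries, but the values nearest to 0 on the log2 scale were 0.00250 for Cd247 in VAT library 3 and -0.0197 for Cd3e (in cells with a Foxp3 UMI) and -0.0409 for Cd4 in VAT library 2. Cd2 changed side in both VAT libraries, Cd5 in library 2 and Lat in library 3. Zeta's share of the 4 chains, added after its values were seen, was 20.8% to 23.9% (spleen), 39.8% to 44.1% (VAT library 2) and 34.8% to 39.4% (VAT library 3). No paired analysis was possible because no result comes from a test and spleen has 1 library.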

Other observations

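Below the 50-UMI minimum lay 14 other listed genes of the receptor pathway, of which those named here were chosen after their values were seen. Sh2d1a, which encodes the adaptor SAP that works with receptors of the SLAM family, had 35, 0 and 0 UMIs (spleen, VAT libraries 2 and 3), at least 11.3-fold and 11.2-fold lower against 3 UMIs per library. Slamf6, a receptor of that family, had 7, 1 and 1 UMIs, too few to compare. Txk, a kinase of the Tec family, had 22, 1 and 1 UMIs, with ratios to spleen of 0.0469 (0.00114 to 0.290) and 0.0475 (0.00115 to 0.294), for counting error only. Tec, another kinase of that family, went the other way with 1, 12 and 9 UMIs, and ratios of 12.4 (1.83 to 529) and 9.41 (1.30 to 412).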
